A study of Homo sapiens with 6 samples.

Results

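The genes described here encode 10 surface or secreted molecules with which a tumor cell meets immune cells. They were taken from a list of names, with no measured value in the rule, as ligands for receptors of T cells, natural killer (NK) cells and macrophages, and they are 10 of the 67140 gene identifiers in the table. RNA was sequenced from the human esophageal squamous cell carcinoma (ESCC) line KYSE150, an established line, in 3 samples with a control hairpin (shCtrl) and 3 samples with a hairpin against the lncRNA AC007128.1 (shAC007128.1), all grown in RPMI 1640 with 10% fetal bovine serum. The comparison asks how depletion of AC007128.1 changed gene expression in these cells. The labels call the cells transfected, and the study's methods describe hairpin lines made with lentivirus and puromycin. Each arm thus carried 1 hairpin in 1 cell line, and the labels do not say whether replicates were separate cultures, so the p-values measure the spread between these samples, which may be technical. The values are of mRNA, not of protein at the cell surface.

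Checkpoint ligands are read by receptors on lymphocytes and macrophages. PD-L1 (CD274) and PD-L2 (PDCD1LG2) engage PD-1 and restrain T cells, CD80 feeds CD28 and CTLA-4, and CD276 (B7-H3) is a related B7 protein. CD47 binds SIRPα on macrophages and limits engulfment. PVR (CD155) and NECTIN2 (CD112) are read by the activating receptor CD226 and by the inhibitory receptors TIGIT, CD96 and PVRIG. ICAM1 and CD58 hold the contact itself together through the integrin LFA-1 and CD2, and galectin-9 (LGALS9) binds sugars on receptors such as TIM-3. In squamous tumors, interferon-γ signaling through JAK and STAT proteins is a well-known inducer of CD274, and NF-κB is a well-known activator of ICAM1.

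The hairpin's target is shown because it defines the treated group. It is 19 bases long, it was read from the study's oligonucleotide list, and it lies on the plus strand at chr7:8343202-8343220 (hg38), within the annotated bounds of AC007128.1 (8262264 to 8344516). Capitals mark the target, here the whole run, which the hairpin's guide strand complements.
shAC007128.1 target: CCACAAGTCCTGGCACATT

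AC007128.1 itself gave few reads. Its counts were 69, 33 and 53 in shCtrl replicates 1, 2 and 3, and 18, 37 and 15 in shAC007128.1 replicates 1, 2 and 3, so the groups overlapped through shCtrl replicate 2 and shAC007128.1 replicate 2. The mean was 0.712 ± 0.273 CPM in shCtrl and 0.417 ± 0.224 CPM in shAC007128.1 (SD, n = 3), where CPM is counts per 1000000 library counts after scaling by edgeR's trimmed mean of M values (TMM). The log2 fold change was -0.77 (SE 0.51, adjusted p = 0.271, edgeR's quasi-likelihood test), so a lower level of the targeted lncRNA did not pass the test in this table. The study reports a reduced AC007128.1 level with its hairpin by qPCR, a separate measurement that the counts do not hold. Total counts ran from 55764405 to 78610457 per sample, and all 3 shAC007128.1 samples had fewer counts than any shCtrl sample. At these depths 3 counts, taken as the smallest detectable level, correspond to between 0.0373 and 0.0546 CPM, which covers counting error only. The squamous markers were expressed (10 of 10 tested), with summed levels of 2720 to 2768 CPM in shCtrl and 3778 to 4674 CPM in shAC007128.1. Of 12 leukocyte markers 5 were tested. CD68 stood at 63.8 CPM in shCtrl and 17.5 CPM in shAC007128.1, CSF1R at 3.51 and 3.45 CPM and CD3E at 0.463 and 0.707 CPM, while CD3D and MS4A1 had no count in any sample and PTPRC reached at most 9 counts.

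PDCD1LG2 and PVR fell in shAC007128.1 cells, and no other ligand of the 10 passed the test. PDCD1LG2 dropped to 26.8% and PVR to 56.9% of the shCtrl mean, whereas CD47 and NECTIN2 stood at 106% and 94.4% without passing it. Of the 10 genes, 9 had enough counts to be tested and CD80 did not. With p-values adjusted by Benjamini-Hochberg over all 19254 genes tested and a threshold of 0.05, 0 of the 9 were higher and 2 were lower in edgeR, DESeq2 and limma-voom alike, and 7 did not pass in edgeR. By this adjusted threshold 21.0% of all genes tested were higher and 19.8% were lower, so the count of lower members lies near the background. At an unadjusted p under 0.05, 0 members were higher and 3 lower. The share of all genes at this unadjusted limit was not computed. Unadjusted counts, here and for the lists below, thus have no background to be read against. With a fold of at least 2 as well, 1 member (PDCD1LG2) was lower and 0 were higher, where 10.1% of all genes tested were lower and 5.57% higher. The median log2 fold change was -0.26 over the 9 members and -0.02 over all genes tested. For 4 of the 9 (CD274, PDCD1LG2, PVR and ICAM1) the highest treated sample was under the lowest control sample, which held for 28.2% of all genes tested. For 1 (CD58) the lowest treated sample was above the highest control sample, which held for 27.0%.

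**Figure D1:**
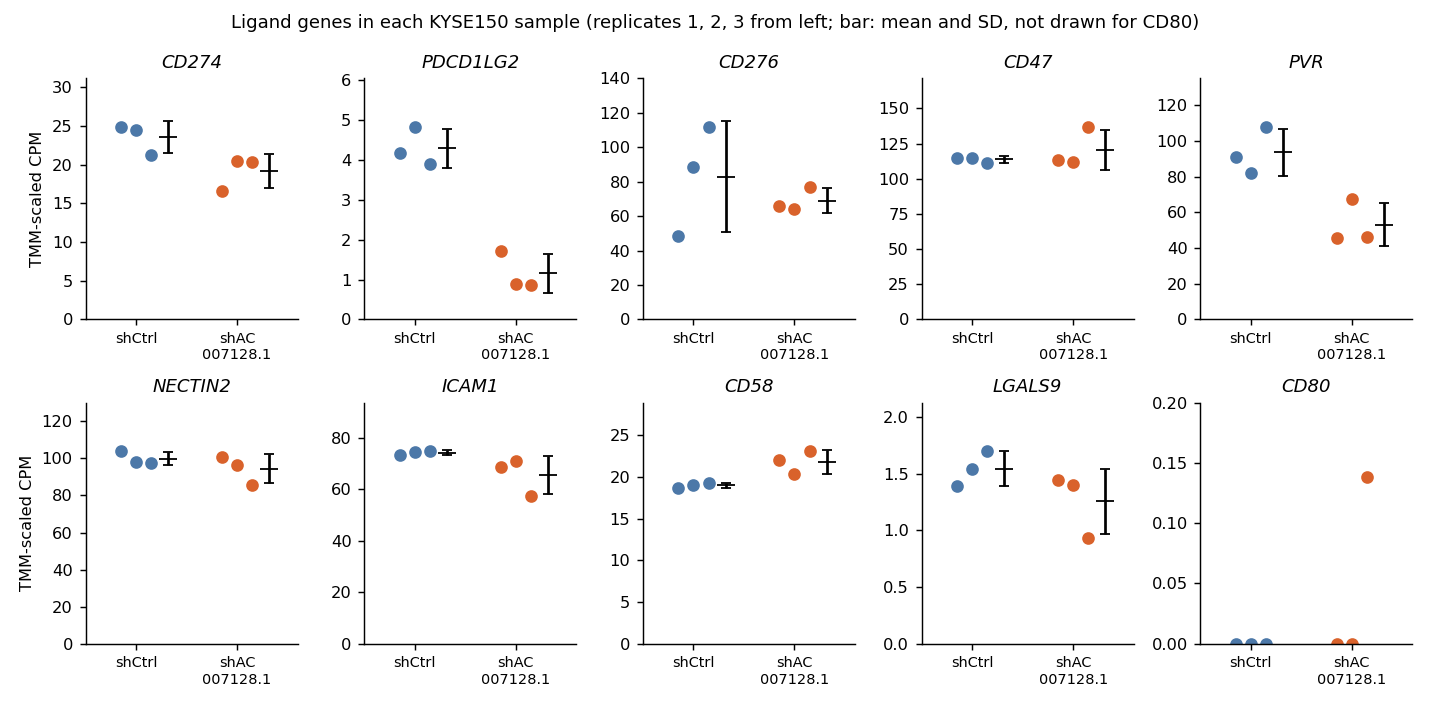
TMM-scaled CPM of the 10 ligand genes in each KYSE150 sample, with shCtrl in blue and shAC007128.1 in orange, replicates 1 to 3 from left to right, and the mean and SD of 3 samples as a bar (not drawn for CD80). The PDCD1LG2 points fall from between 3.89 and 4.84 CPM to between 0.86 and 1.71 CPM, the PVR groups are also apart, and the CD276 points of shCtrl spread from 48.3 to 112 CPM.

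The PD-1 ligands lie side by side on chromosome 9, with CD274 (ENSG00000120217) at chr9:5450503-5470566 and PDCD1LG2 (ENSG00000197646) at chr9:5510531-5571282, both on the plus strand and 40.0 kb apart (GENCODE v44 on hg38). PDCD1LG2 gave 305, 389 and 264 counts in shCtrl replicates 1, 2 and 3, or 4.17, 4.84 and 3.89 CPM. In shAC007128.1 replicates 1, 2 and 3 it gave 96, 49 and 50 counts, or 1.71, 0.892 and 0.86 CPM. The groups did not overlap, and shAC007128.1 replicate 1 was the highest of the treated samples.

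The mean PDCD1LG2 level went from 4.3 ± 0.486 to 1.15 ± 0.48 CPM (SD, n = 3), 3.72-fold lower, with a log2 fold change of -1.90 (SE 0.30, 95% interval -2.61 to -1.18, adjusted p = 0.00245, edgeR). It stayed lower, with an adjusted p of at most 0.012, in each of the 15 alternative settings, where its log2 fold change lay between -2.29 and -1.73. Those settings include libraries thinned to 1 depth, since depth differed between the groups. Without shAC007128.1 replicate 2, the treated sample with the most AC007128.1 counts, PDCD1LG2 was at -1.74 (adjusted p = 0.0106). The exact permutation test of the CPM values gave p = 0.1, the smallest that 3 samples against 3 allow (two-sided).

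CD274, the gene for PD-L1, was nearer to the control level. Its CPM was 24.9, 24.5 and 21.2 in shCtrl and 16.6, 20.5 and 20.3 in shAC007128.1 (replicates 1, 2 and 3). The highest treated sample sat just under the lowest control sample, so the groups were apart by a narrow margin. The means were 23.5 ± 2.03 and 19.1 ± 2.2 CPM, or 81.2% of control, and the log2 fold change of -0.30 (SE 0.13, 95% interval -0.60 to -0.01) did not pass over all genes (adjusted p = 0.0959, edgeR). For comparisons between genes, exon length joins the exons of all annotated transcripts of a gene. Per kilobase of exon, PDCD1LG2 mRNA amounted to 30.9% ± 2.56 of CD274 mRNA in shCtrl (28.2 to 33.4%) and to 10.6% ± 5.85 in shAC007128.1 (7.16 to 17.4%). The ratio was lower in each treated sample than in any control sample.

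The protein-coding neighbors of the pair changed in opposite directions. PLGRKT, a plasminogen receptor gene upstream of CD274, went from 184 ± 1.99 to 138 ± 2.41 CPM (log2 fold change -0.42, SE 0.06, adjusted p = 0.00143, edgeR). RIC1, which lies downstream of PDCD1LG2 and whose product takes part in retrograde transport to the Golgi, went from 168 ± 20.3 to 267 ± 6.72 CPM (log2 fold change 0.66, SE 0.09, adjusted p = 0.00135). These were the protein-coding neighbors found within 100 kb in the annotation.

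**Figure D2:**
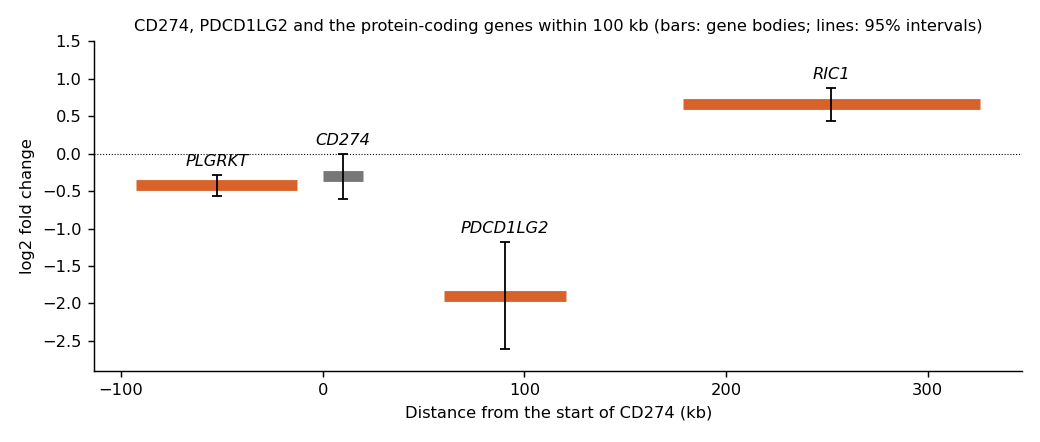
Log2 fold change (shAC007128.1 against shCtrl) of CD274, PDCD1LG2 and the protein-coding genes within 100 kb, plotted against distance from the start of CD274 in kb, with gene bodies as bars, 95% intervals as lines and orange for an adjusted p of at most 0.05. PDCD1LG2 at -1.90 stands below PLGRKT at -0.42 and CD274 at -0.30, and RIC1 lies above zero at 0.66.

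CD80 was not detected in control cells. It had 0 counts in each shCtrl sample, which allows up to 0.041, 0.0373 and 0.0442 CPM in replicates 1, 2 and 3, and it had 0, 0 and 8 counts in shAC007128.1. A single treated library with 8 counts gives no measure of change, and 798 of the exonic bases of CD80 are shared with TIMMDC1, which stood at 37.4 CPM in shCtrl. CD276, by contrast, was well expressed but uneven. Its CPM in shCtrl was 48.3, 88.3 and 112, and in shAC007128.1 it was 65.7, 64.1 and 77.2, so the treated samples lay inside the control range. The means of 82.9 ± 32.3 and 69 ± 7.13 CPM gave a log2 fold change of -0.26 (SE 0.27, 95% interval -0.91 to 0.38, adjusted p = 0.483, edgeR). Without shCtrl replicate 1 the log2 fold change of CD276 was -0.54 with an adjusted p of 0.0328, and without shCtrl replicate 3 it was 0.01, so either control sample decided its value.

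PVR and NECTIN2 share receptors and lie 180.0 kb apart on chromosome 19, and their values differed in size. PVR (ENSG00000073008, chr19:44643798-44666162, plus strand) stood at 90.8, 81.8 and 108 CPM in shCtrl and at 45.7, 67.2 and 46.4 CPM in shAC007128.1. All treated samples were below all control samples, and shAC007128.1 replicate 2 was the nearest to them. The mean fell from 93.4 ± 13.1 to 53.1 ± 12.2 CPM, with a log2 fold change of -0.81 (SE 0.18, 95% interval -1.23 to -0.40, adjusted p = 0.00893, edgeR). PVR passed in all 15 alternative settings, with an adjusted p of at most 0.0343, and the exact permutation test gave p = 0.1, again the smallest possible. Without shAC007128.1 replicate 2 its log2 fold change was -1.02, past the fold of 2.

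PVR shares 2028 exonic bases with ENSG00000279095, an unnamed gene on the same strand whose counts were 568, 647 and 560 in shCtrl and 244, 11 and 13 in shAC007128.1. The shared bases are the whole exonic length of ENSG00000279095, so reads of these genes could be split between them. Their sum, chosen after the values were seen, stood at 101 ± 13.3 CPM in shCtrl and 54.7 ± 11.1 CPM in shAC007128.1. That was 53.9% of control. PVR alone made up 93.4 CPM of the sum in shCtrl and 53.1 CPM in shAC007128.1. The sum therefore had to lie close to PVR, and it cannot show how reads were assigned. PVR also shares 121 exonic bases with CEACAM19, which stood at 9.27 CPM in shCtrl and 2.80 CPM in shAC007128.1. The part of shared reads in the PVR value was not tested.

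NECTIN2 (ENSG00000130202, chr19:44846175-44889223) was nearly level. It stood at 104, 98.2 and 97.3 CPM in shCtrl and at 101, 96.5 and 85.7 CPM in shAC007128.1, and the groups overlapped. The log2 fold change was -0.08 (SE 0.09, adjusted p = 0.473, edgeR), and its 95% interval of -0.28 to 0.12 leaves out a fall as large as the estimate for PVR. Per kilobase of exon, PVR mRNA came to 33.6% ± 5.31 of NECTIN2 mRNA in shCtrl and 20.2% ± 4.41 in shAC007128.1. The size of this ratio rests on joined exon lengths of 10427 bases for PVR and 3742 for NECTIN2. Without length, the shCtrl means were 93.4 and 100 CPM. The highest ratio in treated cells was 25% and the lowest in control cells was 29.9%.

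CD47, the signal read by macrophages, gave 115, 115 and 111 CPM in shCtrl and 113, 112 and 137 CPM in shAC007128.1. The samples overlapped except for shAC007128.1 replicate 3, which was above all others. The log2 fold change was 0.09 (SE 0.09, 95% interval -0.14 to 0.31, adjusted p = 0.503, edgeR), and it was -0.02 without that replicate. PVR amounted to 65% ± 10.5 of CD47 per kilobase of exon in shCtrl and to 35.3% ± 10.7 in shAC007128.1.

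The adhesion ligands ICAM1 and CD58 lay close to their control levels. ICAM1 was tight in shCtrl at 73.4, 74.6 and 74.9 CPM and looser in shAC007128.1 at 68.5, 71 and 57.3 CPM. CD58 gave 18.7, 19 and 19.3 CPM in shCtrl and 22, 20.3 and 23.1 CPM in shAC007128.1. Neither gene's groups overlapped, yet neither passed the test. The log2 fold change of ICAM1 was -0.18 (SE 0.10, 95% interval -0.41 to 0.05, adjusted p = 0.185), and that of CD58 was 0.20 (SE 0.10, 95% interval -0.03 to 0.43, adjusted p = 0.146, edgeR). ICAM1 shares 815 exonic bases with ICAM4-AS1 on the other strand. Since the use of strand in counting is not stated, reads of the shared bases could belong to either gene. ICAM4-AS1 stood at 0.674 CPM in shCtrl and 0.395 CPM in shAC007128.1, beside means of 74.3 and 65.6 CPM for ICAM1. The part of shared reads in the ICAM1 value was not tested.

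LGALS9 was the lowest of the tested members per length. It had 102, 124 and 115 counts in shCtrl and 81, 77 and 54 in shAC007128.1, or 1.39, 1.54 and 1.7 CPM against 1.44, 1.4 and 0.929 CPM. The groups overlapped, and the log2 fold change was -0.30 (SE 0.25, 95% interval -0.89 to 0.30, adjusted p = 0.395, edgeR). Its near-identical copies LGALS9B and LGALS9C can take reads that belong to LGALS9 or the reverse. LGALS9B rose from 0.383 ± 0.18 to 1.97 ± 0.446 CPM (log2 fold change 2.36, SE 0.39, adjusted p = 0.00269), and LGALS9C had 0.108 and 0.344 CPM (log2 fold change 1.67, adjusted p = 0.154). Summed over the 3 genes, again a sum chosen after the values were seen, the level was 2.03 ± 0.418 CPM in shCtrl and 3.57 ± 0.541 CPM in shAC007128.1, or 175% of control (exact permutation p = 0.1). The single gene thus lay below control without passing the test, and the sum lay above control in every sample.

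**Figure D3:**
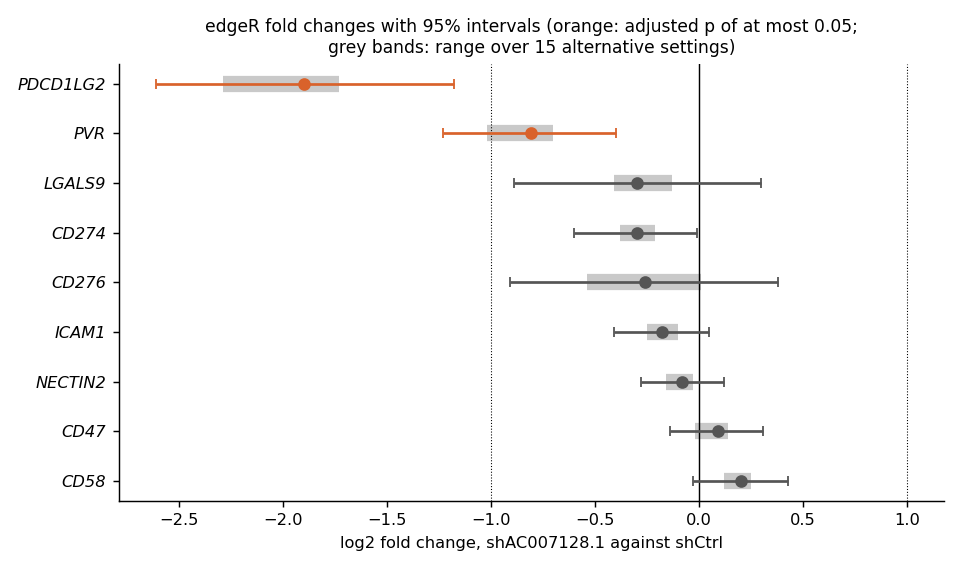
Log2 fold changes of the 9 tested ligand genes (shAC007128.1 against shCtrl, edgeR) as points with 95% intervals, over grey bands that span the 15 alternative settings, with dotted lines at a fold of 2. PDCD1LG2 and PVR, in orange, are the members with an adjusted p of at most 0.05, and the band of CD276 reaches from -0.54 to 0.01.

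Levels between genes can be compared only per length, here as counts per kilobase of exon scaled to a sum of 1000000 over all genes. The length is that of the joined exons of all annotated transcripts. Which transcripts these cells use was not measured, so the order depends on this choice. In shCtrl cells NECTIN2 led at 85.0 ± 2.11, followed by ICAM1 at 68.6 ± 2.11, CD276 at 48.4 ± 19.7, CD47 at 43.9 ± 0.191, CD58 at 33.9 ± 1.24, PVR at 28.5 ± 4.53 and CD274 at 18.2 ± 1.22. PDCD1LG2 at 5.62 ± 0.589 and LGALS9 at 0.861 ± 0.102 were well below them. CD276, whose samples ran from 27.5 to 66.6, could not be placed apart from ICAM1, CD47, CD58 or PVR, and the samples of CD58 and PVR also overlapped. In shAC007128.1 cells NECTIN2 and ICAM1 again came first, at 79.4 ± 7.69 and 59.9 ± 7.94, and the samples of ICAM1 and CD47, of CD47 and CD276 and of CD276 and CD58 overlapped. PVR at 16.1 ± 4.12 now overlapped CD274 at 14.6 ± 1.8, from which it had been apart in shCtrl. Summed over the members, the per-length level was 333 ± 23.8 in shCtrl and 296 ± 10.5 in shAC007128.1.

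**Figure D4:**
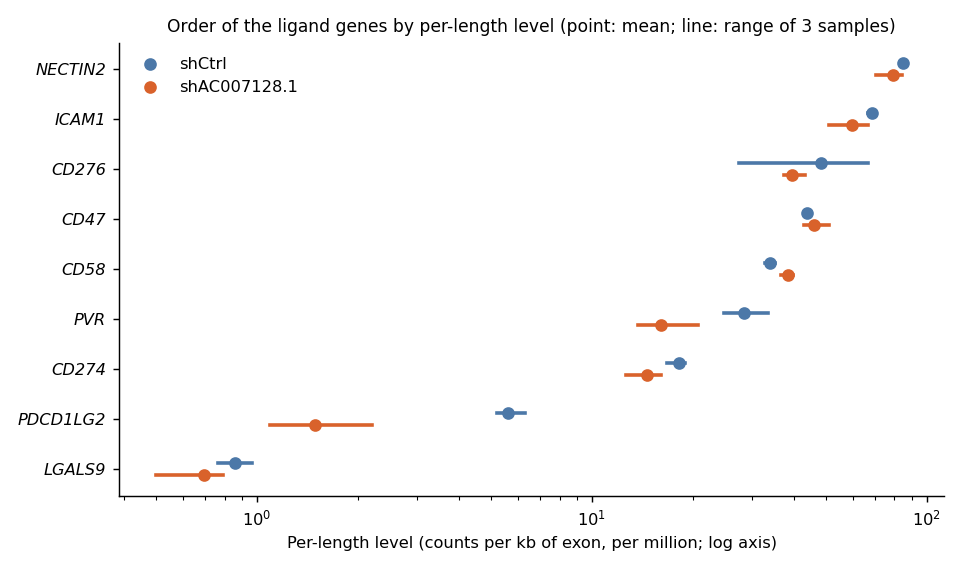
Per-length level (counts per kilobase of exon, scaled to a sum of 1000000, log axis) of 9 ligand genes in shCtrl (blue) and shAC007128.1 (orange), with the mean as a point and the range of 3 samples as a line, ordered by the shCtrl mean (CD80, at or near 0, is left out). The shift is widest for PDCD1LG2, from 5.62 to 1.49, and next widest for PVR, from 28.5 to 16.1.

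The promoters of the members were searched for sequences that interferon and NF-κB signaling can use. The RefSeq promoter table (GRCh38.p14) held 9 of the 10 members in 10 windows, and PDCD1LG2 was not among them. In the 250 bases before each start, on both strands, the motifs were TTCNNNGAA (the gamma-activated site read by STAT proteins), the interferon-stimulated element (GAAA, 2 bases of any kind and GAAA again), TGANTCA (AP-1) and the κB motif. The κB form searched was GGG, a purine, 2 bases of any kind, 2 pyrimidines and CC, so looser κB sequences were not counted. A match was found for 3 members (CD274, CD276 and ICAM1). The ICAM1 window also holds tggaaattcc, which departs from the κB form searched only at its first base and is left unmarked. The CD274 and ICAM1 windows are shown because they hold the STAT-type motif, with motifs in capitals and the bases after the annotated start left out.
CD274, chr9:5450292-5450502, plus strand: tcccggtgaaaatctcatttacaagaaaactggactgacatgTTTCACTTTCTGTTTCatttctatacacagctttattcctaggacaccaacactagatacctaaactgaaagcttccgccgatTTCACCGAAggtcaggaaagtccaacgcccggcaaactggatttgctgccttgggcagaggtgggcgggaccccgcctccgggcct
ICAM1, chr19:10270870-10271092, plus strand: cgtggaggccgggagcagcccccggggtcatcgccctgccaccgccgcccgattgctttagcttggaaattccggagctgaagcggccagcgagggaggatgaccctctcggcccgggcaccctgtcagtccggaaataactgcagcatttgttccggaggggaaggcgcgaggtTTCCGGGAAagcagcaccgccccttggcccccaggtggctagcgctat

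In CD274 the match TTCACCGAA began 125 bases before the RefSeq start, and 2 overlapping matches to the interferon-stimulated element, on the reverse strand, began 208 and 202 bases before it. In ICAM1 the match TTCCGGGAA began 75 bases before the start. The second CD276 window held 1 match to the κB motif, 68 bases before its start. Among all 35116 promoter windows of this length, 6.57% held TTCNNNGAA, 3.02% the interferon-stimulated element, 6.57% TGANTCA and 9.96% the κB motif. These are matches of letters, not sites of measured binding. PVR, which fell, was 1 of 6 members with no match, and PDCD1LG2, which also fell, had no window.

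Genes of interferon and NF-κB signaling and its regulation were taken next. Of 19 genes, all tested, 5 were higher and 3 were lower, where 21.0% of all genes tested were higher and 19.8% lower, and the median log2 fold change was 0.11. STAT3, the transducer of IL-6-type cytokines, rose from 133 ± 3.1 to 228 ± 7.79 CPM (log2 fold change 0.78, SE 0.06, adjusted p = 0.000137, edgeR). SOCS3, a STAT3-induced inhibitor of JAK signaling, rose from 25.7 ± 3.5 to 68.8 ± 14.8 CPM (1.42, SE 0.18, adjusted p = 0.000873). RELB, a subunit of the non-canonical NF-κB pathway, fell from 33.6 ± 1.49 to 15 ± 2.87 CPM (-1.17, SE 0.15, adjusted p = 0.000973). JAK2, STAT2 and IRF2 were the other genes that rose, and NFKB2 and RELA the others that fell. IRF1, a transcription factor in interferon-γ induction of CD274, did not pass (log2 fold change -0.14, adjusted p = 0.362).

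The set of ligands was widened to their relatives. Of the other B7 and butyrophilin ligands, 9 of 11 were tested, 0 were higher (0 at an unadjusted p under 0.05, 0 by DESeq2 and limma-voom) and 3 were lower, beside 21.0% higher and 19.8% lower over all genes tested. The median log2 fold change was -0.35. VSIR (VISTA, a B7-like inhibitor of T cells) fell from 83.9 ± 2.11 to 51.9 ± 6.28 CPM (log2 fold change -0.69, SE 0.10, adjusted p = 0.00179, edgeR). NCR3LG1 (B7-H6), which NK cells read through NKp30, fell from 10.7 ± 0.723 to 5.43 ± 0.832 CPM (-0.99, SE 0.16, adjusted p = 0.00257). BTN3A3, a butyrophilin of the family sensed by γδ T cells, fell from 10.6 ± 3.59 to 4.11 ± 0.433 CPM (-1.37, SE 0.27, adjusted p = 0.0064). Its relatives BTN3A1 (-0.03, adjusted p = 0.95) and BTN3A2 (-0.09, adjusted p = 0.891) did not pass in edgeR. Their shCtrl samples were uneven, from 10.3 to 23.0 CPM and from 10.2 to 23.3 CPM. Whether reads were traded between these related genes was not tested, so the BTN3A3 value is less certain. CD86, the partner of CD80, was too low to be tested, at 0.129 CPM in shCtrl and 0.0541 CPM in shAC007128.1.

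The TNF superfamily list holds ligands that deliver co-stimulation or death signals, and also the receptors CD40, FAS and TNFRSF14. Of 10 genes 9 were tested, 1 rose and 3 fell, all past a fold of 2, where 5.57% of all genes tested rose and 10.1% fell. The median log2 fold change was -1.42, and TNFSF14 (-1.53) and TNFRSF14 (-1.63), which averaged under 1 CPM in both groups and did not pass, are among the values below it. TNFSF9 (4-1BB ligand) rose from 26.7, 27.5 and 25.8 CPM to 73.6, 69.3 and 54.9 CPM (log2 fold change 1.30, SE 0.12, adjusted p = 0.000235, edgeR). TNFSF18 (GITR ligand) fell from 9.62, 11.5 and 9.55 CPM to 0.196, 0 and 0.826 CPM (-4.89, SE 0.90, adjusted p = 0.0044). It passed in the 14 alternatives that could test it, but its log2 fold change ranged from -6.68 (without shAC007128.1 replicate 3) to -4.31 (without shAC007128.1 replicate 2), and limma-voom gave -6.42. TNFSF15 (TL1A), the ligand of DR3, fell from 32.4 ± 1.24 to 12.1 ± 0.936 CPM (-1.42, SE 0.10, adjusted p = 8.42e-05), and TNFSF10 (TRAIL) was the other gene that fell. With a minimum of 10 counts in every sample, the lower count of this list was 1 in place of 3, and TNFSF18 was not tested.

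Of 12 ligands of NK cell receptors 10 were tested, 3 were higher and 1 was lower, beside 21.0% and 19.8% of all genes tested, with a median log2 fold change of -0.06. HLA-E, which presents signal peptides to the inhibitory receptor NKG2A, fell from 524 ± 17.7 to 293 ± 34.1 CPM (log2 fold change -0.84, SE 0.09, adjusted p = 0.000488, edgeR). ULBP2 and MICA, stress ligands of the activating receptor NKG2D, rose from 13.1 ± 1.35 to 23.8 ± 0.824 CPM (0.86, adjusted p = 0.00103) and from 28.2 ± 1.66 to 47.7 ± 6.35 CPM (0.76, adjusted p = 0.00212). ULBP3 was the other gene that rose.

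Other adhesion ligands of leukocyte receptors were tested for 11 of 16 genes, of which 4 rose and 0 fell in edgeR (0 lower at an unadjusted p under 0.05, 0 by DESeq2 and limma-voom), beside 21.0% and 19.8% of all genes tested. The median log2 fold change was 0.29. F11R (JAM-A), a junction protein that also binds LFA-1, rose from 163 ± 18.8 to 278 ± 9.02 CPM (0.77, adjusted p = 0.00071, edgeR), and JAM3 rose from 1.81 ± 0.361 to 4.38 ± 0.743 CPM (1.27, adjusted p = 0.00415). CDH1 (E-cadherin), a ligand of KLRG1 and CD103, rose from 535 ± 7.84 to 620 ± 21 CPM (0.21, adjusted p = 0.0187), but CDH1 lost its call in 8 of the 15 alternatives. CD99 also rose. F11R shares 1853 exonic bases with ENSG00000270149 and JAM3 shares 1889 with NCAPD3, so their counts are less certain. Of the 10 squamous markers 7 rose, CDH1 among them, with KRT14 from 59.9 to 291 CPM and KRT6A from 34.9 to 192 CPM, and the part of this shift in the ligand values was not tested.

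Of 16 other galectins and inhibitory surface molecules 9 were tested, 3 rose and 0 fell in edgeR (1 lower at an unadjusted p under 0.05, 1 by DESeq2, 0 by limma-voom), beside the same shares of all genes tested. The median log2 fold change was 0.04. CD59, which blocks the complement pore, rose from 95.9 ± 14 to 188 ± 26.1 CPM (0.97, adjusted p = 0.00139, edgeR). LGALS8 (galectin-8, 0.71, adjusted p = 0.00844) and ENTPD1 (CD39, which degrades extracellular ATP, 0.57, adjusted p = 0.0101) also rose, but LGALS8 shares exons with HEATR1 and ENTPD1 with ENTPD1-AS1. Of 15 genes that handle PD-L1 or CD47 protein, all tested, 3 rose and 2 fell (median 0.04), beside 21.0% and 19.8% of all genes. STT3B, a catalytic subunit of the N-glycosylation machinery, fell from 248 ± 1.51 to 139 ± 17.1 CPM (-0.83, adjusted p = 0.000534), and STUB1, a ubiquitin ligase, fell from 82.6 ± 8.07 to 49.6 ± 8.83 CPM (-0.74, adjusted p = 0.0063), with 985 exonic bases shared with JMJD8. USP22, a deubiquitinase, rose from 249 ± 1.41 to 337 ± 17.8 CPM (0.44, adjusted p = 0.00154), as did CMTM6, which keeps PD-L1 at the surface, from 349 ± 3.82 to 453 ± 52.9 CPM (0.37, adjusted p = 0.0128), and CUL3. Smaller overlaps, of 156 to 898 exonic bases, touch MICA, SIRPA, CDH1, CD59 and USP22.

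**Figure D5:**
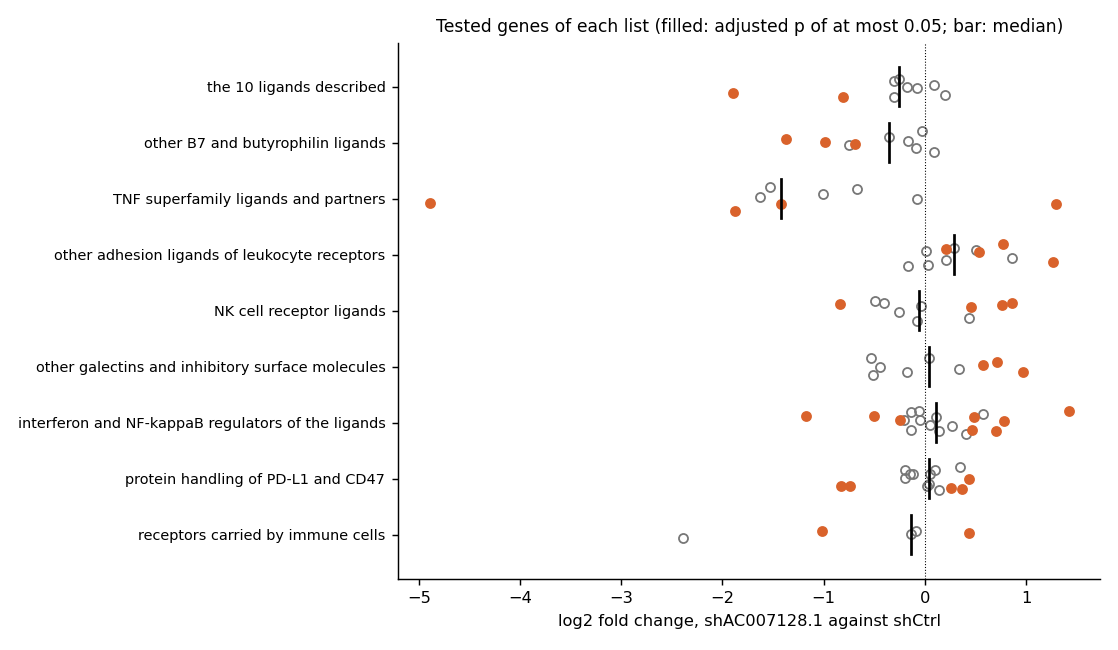
Log2 fold changes (shAC007128.1 against shCtrl) of the tested genes in the ligand set and in 8 related lists, with filled points for an adjusted p of at most 0.05, open points for the rest and a bar at each list's median. The TNF superfamily list has the lowest median, -1.42, and the widest span, from -4.89 to 1.30, while the 9 tested ligands centre at -0.26.

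Most receptors in a list that covers these ligands and others were at or near 0 counts. Of 17 receptors that immune cells carry, 5 were tested, 1 was higher and 1 was lower (21.0% and 19.8% of all genes tested), and 6 (PDCD1, CTLA4, CD28, SIRPG, CD2 and ICOS) had no count in any sample. SIRPA, the CD47 receptor, gave 22.8, 23.4 and 22.5 CPM in shCtrl and 32.9, 32.9 and 27.3 CPM in shAC007128.1 (log2 fold change 0.44, SE 0.11, adjusted p = 0.014, edgeR). LAG3 was lower, from 1.06 ± 0.193 to 0.523 ± 0.166 CPM (-1.02, SE 0.34, adjusted p = 0.0446). The call on SIRPA was lost without shCtrl replicate 1 (0.43) or replicate 3 (0.42), and that on LAG3 in 8 of the 15 alternatives. Leukocyte markers summed to 63.3 to 72.6 CPM in shCtrl and 18.6 to 27.9 CPM in shAC007128.1, most of it CD68, a lysosomal protein, which fell (log2 fold change -1.87, adjusted p = 0.000458). Fibroblast markers summed to 15.3 to 16.1 CPM and 20.9 to 23.9 CPM, and endothelial markers to 2.12 to 3.11 CPM and 0.302 to 2.02 CPM. Their part in the ligand values was not tested, and in bulk RNA fewer cells of a type and less RNA per cell cannot be told apart.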

How the data were processed

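Poly-A RNA of the 6 KYSE150 samples was sequenced as paired-end TruSeq libraries. Reads of rRNA, adapters, short fragments and low quality were dropped by the authors before mapping to hg38 with TopHat. The submitters' processing notes list CASAVA 1.8 and TopHat2 2.0.6. The values deposited by the authors are estimated counts for each Ensembl gene, without normalization, as whole numbers. The counting program, annotation release and use of strand for this table are not given in the sources used here. Counts of 4 and its multiples were over-represented (1355 genes at 4 but 761 at 3 in shCtrl replicate 1), so counts divided by 4 were tried as well. The growth text of every sample names shCtrl and the treatment text of every sample, controls included, names shAC007128.1, so groups were taken from sample titles. Columns left unmapped numbered 0.

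Gene models came from GENCODE v44 on hg38, which held 60357 of 67140 identifiers. edgeR 4.0.16 in R 4.3.3 was used with filterByExpr (47886 identifiers removed), TMM factors of 0.967 to 1.042, glmQLFit and glmQLFTest over all genes. The study's limits of an adjusted p of 0.05 and a fold of 2 were kept with this count test. Standard errors are the log2 fold change over the root of F. CPM used the same scaling, and per-length levels are counts per kilobase of exon scaled to a sum of 1000000. Exon length was that of the joined exons of all annotated transcripts of a gene. Single levels were also compared with a two-sided exact permutation test. The alternatives were DESeq2 1.42.0, limma-voom (limma 3.58.1), DESeq2 size factors, no scaling beyond library size, no filter, a minimum of 10 counts in every sample, the replicate block, counts divided by 4, libraries thinned to 1 depth and each sample left out. The steps were tested on simulated data with known changes.

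The 10 ligands and the related lists were chosen with earlier results of these data known. Named were all 10 ligands, the 3 genes with the smallest p among those passing in each related list, and protein-coding genes within 100 kb of CD274 or PDCD1LG2. Other genes named as passing, as untested partners or as sharing exons were chosen after their values were seen, as were IRF1, CMTM6, BTN3A1 and BTN3A2. Some genes of these lists are not reported here. Promoters came from a RefSeq table of GRCh38.p14. A planned comparison of protein sequences was not run, since protein sequences were not used here.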

Additional observations from a re-analysis of the deposited data

How the results depend on the processing

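PDCD1LG2 and PVR kept their direction and passed the test in all 15 alternatives. Of 135 refits of the ligands' log2 fold changes 131 kept direction and side of the threshold. CD274 passed with library size only (-0.37, adjusted p = 0.0469), a setting that moved the median of all genes from -0.02 to -0.10, and without a filter on low counts that median was -0.15. With samples left out in turn CD276 ranged from -0.54 to 0.01 (0.01 without shCtrl replicate 3) and CD47 from -0.02 to 0.14 (-0.02 without shAC007128.1 replicate 3). The cause was not tested. The ligands called lower with a fold of 2 numbered 1 to 2 with samples left out.

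Counts over all genes stayed within 1.5 times in 60 of 60 refits, and those over related lists in 213 of 240. DESeq2 called 2 NK cell receptor ligands lower in place of 1. It called 1 galectin or inhibitory molecule lower in place of 0, as did library size only, at least 10 counts in every sample and counts divided by 4. Adhesion ligands that were higher numbered 2 in place of 4 with library size only and with no filter, and TNF superfamily ligands that were lower numbered 1 in place of 3 with at least 10 counts. Immune-cell receptors that were lower numbered 2 with limma-voom, 0 with no filter and 0 with the replicate block, in place of 1. With each sample left out in turn, adhesion ligands that were higher numbered 2 to 7, galectins and inhibitory molecules higher 3 to 5 and lower 0 to 1, interferon and NF-κB regulators higher 3 to 6, protein-handling genes higher 1 to 4, and immune-cell receptors higher 0 to 1 and lower 0 to 1.

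Same-numbered samples did not deviate together (correlations 0.045, -0.05 and -0.055). The labels do not say whether they were handled together, and these correlations cannot settle it. With the replicate block PDCD1LG2 was at -1.96 (adjusted p = 0.0068), PVR at -0.83 (adjusted p = 0.0245) and CD274 at -0.30 (adjusted p = 0.153), and 2 ligands were lower. CD80 was too low to be tested, and a group of 3 samples was too small for the search for outlying samples.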
